A study of Mus musculus with 36 samples.

Results

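The comparison is that of vehicle-treated mouse embryonic fibroblasts (MEFs) that carry the L mutation of the glucocorticoid receptor (GR) on both alleles, GRL/L, with wild-type MEFs, GRwt/wt. It was chosen by genotype, treatment and sequencing run, and holds 6 of the 36 libraries of the experiment, GRL/L replicates 1 to 3 and GRwt/wt replicates 4 to 6. Both groups belong to run 2, both are of the FVB/NJ strain, and both received vehicle for 5 h without dexamethasone (Dex), a synthetic glucocorticoid. The L allele is a point mutation in the ligand-binding domain that was made by genome editing in zygotes of GRwt/D mice and then backcrossed. The MEFs are primary cells grown from embryos after the head and inner organs were taken out, so they are a mixed culture and not a clonal line. Per the paper, each of the 3 cultures of a genotype came from another mouse. The other groups of the experiment are GRD/D, GRD+L/D+L and GRko/ko with their own GRwt/wt controls in run 1, and GRL/L and GRwt/wt of run 2 after 1 μM Dex.

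GR is the receptor through which steroid hormones of the adrenal cortex, such as corticosterone in mice, change the transcription of their target genes. Without hormone it is largely inactive, and cells kept in vehicle show the state without added Dex. That state need not be free of hormone. The paper describes culture in medium with fetal calf serum, and names serum stripped of steroids for its binding assay only. Glucocorticoid in the medium was not measured here. In connective tissue, glucocorticoids are known to restrain inflammatory genes, to slow matrix production and to favour the differentiation of adipocytes. The question of the comparison is which autosomal genes already stood at another level in GRL/L without Dex.

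The GRL/L libraries held 26925658 to 28662608 counts and the GRwt/wt libraries 24588304 to 25587265, and 15489 genes passed the filter on low counts. Log2 fold changes are GRL/L minus GRwt/wt throughout, given with their standard error (SE, n = 3 per group), so positive values are higher in GRL/L, and the median over all genes tested was 0.0039. All 20 fibroblast markers were tested, with a median log2 fold change of 0.06. At an adjusted p of 0.05, a threshold at which 6.88% of all genes tested were higher and 4.47% lower, 2 of them were lower, Thy1 and S100a4. All 6 libraries expressed genes of the Y chromosome. GRwt/wt replicate 6 stood apart from the other 5 libraries in that it held transcripts of keratinocytes, the cells of the epidermis. In it, 13 genes had at least 50 counts while each of the other 5 libraries had at most 5, among them Krt6a with 342 counts, Sprr1a with 104 and Krt1 with 70, and no other library held such a gene. GRwt/wt of run 2 differed from GRwt/wt of run 1 in 3535 genes called (22.8% of those tested), where run, culture and sex cannot be told apart.

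Nr3c1, the gene of GR itself, was at 101, 104 and 105 CPM (counts scaled to the effective library size) in the GRL/L replicates and at 98.1, 101 and 91.8 CPM in GRwt/wt. The groups overlapped, and the log2 fold change was 0.09 ± 0.06 (adjusted p = 0.39). A point mutation leaves no trace in a count per gene, so this level does not check the genotype labels. Of the 23 genes of GR and its cofactors, 3 were lower at the adjusted p and 0 higher. They were the chaperones Hsp90aa1 and Fkbp4, each lower by 0.18 ± 0.05 on the log2 scale, and Hsd11b1, which regenerates active glucocorticoid inside the cell. Hsd11b1 was at 1.99, 1.20 and 1.81 CPM in GRL/L and at 2.50, 2.66 and 3.68 CPM in GRwt/wt, without overlap, and its log2 fold change was -0.82 ± 0.21 (adjusted p = 0.00695).

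At an adjusted p of at most 0.05 and a log2 fold change of at least 1 in size, 203 genes were called, which is 1.31% of the genes tested. Of these, 155 were higher in GRL/L (1.00%) and 48 were lower (0.310%). The calls comprised 193 autosomal genes, 148 higher and 45 lower, and 10 X-linked genes, while 0 were Y-linked. The groups did not overlap in CPM for 188 of the 193 autosomal calls and for 32.4% of all genes tested. The autosomal calls were mostly small, with a median log2 fold change of 1.18 for the higher and -1.58 for the lower genes, and 3 higher and 11 lower genes lay beyond 2 in size. Most were weakly expressed, and 80 of the 193 reached a mean of 50 counts per library. At the adjusted p alone, 1065 genes were higher and 692 lower. Without GRL/L replicate 1, 102 genes were called higher, and with a filter of at least 10 counts in each of the 36 libraries 18 were called in all. The test of whether a log2 fold change exceeds 1, which is stricter than a limit on its estimate, called 4 genes. Genes were named by a rule on size, adjusted p and lists, and members of lists that were not called, C1qc, Adgre1, Cd68, Adamtsl2 and genes of the Dex lists were picked for mention once their values were known.

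The calls that were higher in GRL/L included more genes of macrophages than of any other list, and 3 genes of cartilage. Those that were lower included genes of adipocytes and of skeletal muscle. Genes of sterol and fatty acid synthesis were lower by a smaller step that nearly every member shared.

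**Figure D1:**
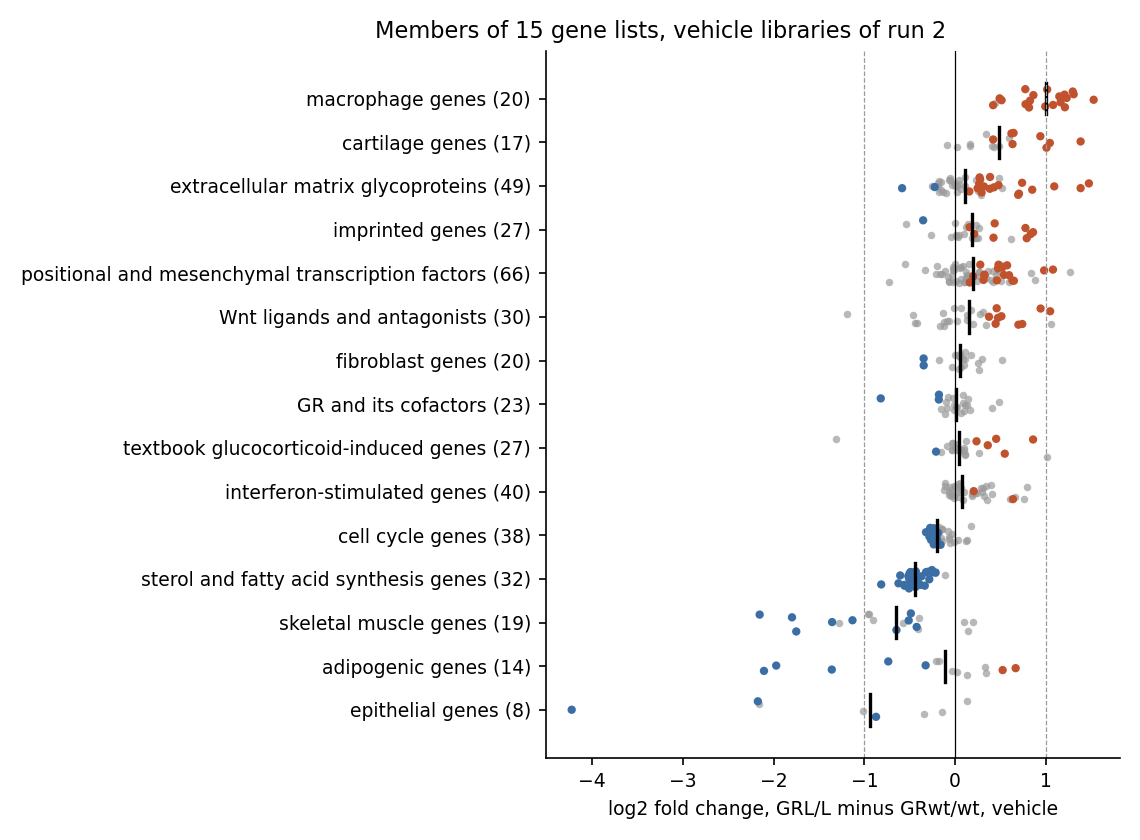
Log2 fold change (GRL/L minus GRwt/wt, vehicle, x axis) of each tested member of 15 gene lists (y axis, number of members tested in brackets). Red and blue points passed an adjusted p of 0.05 upward and downward, grey points did not, black bars are list medians and dashed lines mark a log2 fold change of 1 in size; macrophage genes lie furthest to the right with a median of 1.00, and sterol and fatty acid synthesis genes form a tight group around -0.45.

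Macrophages are phagocytes of the myeloid lineage that live in most connective tissues, and the list holds their surface receptors, complement genes and lysosomal genes. Of its 20 members, 19 were higher in GRL/L at the adjusted p, 10 of them were called, and the median log2 fold change was 1.00 (range 0.42 to 1.53). Aif1, the remaining member, had a log2 fold change of 0.44 ± 0.17 (adjusted p = 0.101). In bulk RNA, more cells of a type and more RNA per cell cannot be told apart. The summed level of the 20 genes was 1451, 1225 and 1235 CPM in GRL/L replicates 1, 2 and 3, and 708, 698 and 660 CPM in GRwt/wt replicates 4, 5 and 6. The groups stood far apart, and replicate 1 was the highest of the GRL/L libraries.

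Cx3cr1, the receptor of the chemokine fractalkine, was at 13.4, 11.8 and 11.7 CPM in GRL/L and at 5.36, 3.50 and 3.90 CPM in GRwt/wt. It had the largest log2 fold change of the list, 1.53 ± 0.14 or 2.88-fold (adjusted p = 1.42e-09), and its gene lies on the minus strand at chr9:119901616-120069879 (mm10). Csf1r, the receptor for the growth factor on which macrophages depend, was at 46.3, 42.5 and 40.9 CPM against 23.3, 19.5 and 18.5 CPM, which is a log2 fold change of 1.08 ± 0.10 (adjusted p = 2.14e-09). Both receptors were higher in every GRL/L library than in any GRwt/wt library.

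The complement subunits C1qa, C1qb and C1qc, which form the recognition part of the classical pathway, were higher by 2.47-, 2.46- and 2.31-fold. C1qa was at 62.1, 48.5 and 46.9 CPM in GRL/L and at 22.4, 21.8 and 19.4 CPM in GRwt/wt (adjusted p = 3.32e-07). C1qb was at 29.4, 24.3 and 23.4 CPM against 10.4, 10.7 and 10.3 CPM (adjusted p = 7.1e-08). Mpeg1, a pore-forming protein of the phagosome, was at 150, 128 and 126 CPM against 61.5, 58.6 and 51.8 CPM (1.23 ± 0.13). In these genes, too, GRL/L replicate 1 was the highest library.

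The most abundant member, the lysozyme gene Lyz2, rose less, from 376, 375 and 366 CPM in GRwt/wt to 724, 609 and 630 CPM in GRL/L (0.81 ± 0.13, adjusted p = 2.92e-05). The pan-leukocyte phosphatase Ptprc (0.99 ± 0.13), the mannose receptor Mrc1 (0.86 ± 0.14) and the cysteine protease Ctss (0.83 ± 0.12) were also higher without being called. Adgre1, which encodes the F4/80 antigen, was higher by 1.15 ± 0.13, and Cd68 by 1.01 ± 0.11. Cd68 was called with all libraries and fell short of the limit of 1 without GRL/L replicate 1 (0.92) or without GRwt/wt replicate 6 (0.98).

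**Figure D2:**
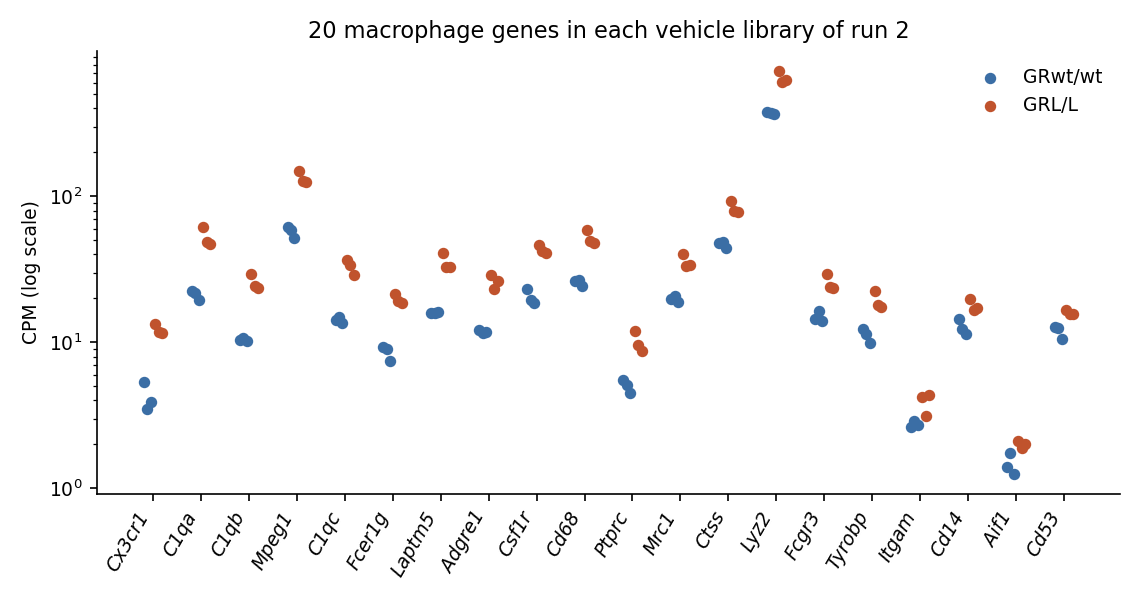
Level of each of 20 macrophage genes (x axis) in the 6 vehicle libraries of run 2, in CPM on a log scale (y axis); each point is 1 library, GRwt/wt in blue and GRL/L in red. Cx3cr1, C1qa, C1qb and Mpeg1 stand at the left with the widest gap between genotypes, and Lyz2 is the most abundant.

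Further genes that are known from leukocytes were named for their size or adjusted p, and not for the list. The integrin Itgal was at 3.95, 3.20 and 3.96 CPM in GRL/L and at 1.06, 1.71 and 1.30 CPM in GRwt/wt (1.44 ± 0.19, adjusted p = 8.83e-07). Pik3ap1, an adaptor of phosphoinositide 3-kinase, was at 14.0, 11.8 and 12.1 CPM against 5.64, 4.81 and 4.20 CPM (1.37 ± 0.13, adjusted p = 2.14e-09). The inhibitory receptor Lair1 (1.43 ± 0.25), the membrane protein Lrrc25 (1.40 ± 0.21), the actin regulator Bin2 (1.37 ± 0.20) and the adaptor Lcp2 (1.28 ± 0.18) were higher as well. The exchange factor Dock8 was higher by 1.18 ± 0.11. Against GRwt/wt of run 1, Dock8 was also higher in GRko/ko (3.53), as the macrophage list was, and in GRD+L/D+L (1.27), where that list was lower. Named for its size and not as a leukocyte gene, Rapgef5, an exchange factor for small GTPases, was at 3.18, 2.56 and 2.01 CPM against 1.13, 0.656 and 1.00 CPM (1.47 ± 0.22, adjusted p = 7.69e-06). Against GRwt/wt of run 1, the log2 fold change of Rapgef5 was 4.67 in GRko/ko and -0.20 in GRD+L/D+L. Which cells of the cultures express it was not tested. Tnf, a cytokine that was named as a called member of the list of inflammatory mediators, was at a very low level of 0.845, 0.728 and 0.462 CPM in GRL/L and 0.141, 0.328 and 0.186 CPM in GRwt/wt (1.61 ± 0.35, adjusted p = 0.00157).

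The myeloid chemokine Ccl6 went the other way. It was at 11.3, 7.56 and 7.72 CPM in GRL/L and at 12.4, 22.4 and 22.3 CPM in GRwt/wt, which is a log2 fold change of -1.10 ± 0.20 (adjusted p = 0.000122). Its groups lay close together at GRL/L replicate 1 and GRwt/wt replicate 4, and it was no longer called without GRwt/wt replicate 5 (-0.97) or replicate 6 (-0.97). Gimap9, a GTPase of lymphoid cells, was lower in all GRL/L libraries, at 1.32, 1.20 and 1.25 CPM against 2.79, 2.74 and 2.56 CPM (-1.10 ± 0.23, adjusted p = 0.000954).

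The macrophage list also varied across the other groups of the experiment. The 20 genes summed to 319, 517 and 293 CPM in GRwt/wt of run 1, 1046 to 1113 CPM in GRD/D, 51.0 to 63.7 CPM in GRD+L/D+L and 4238 to 4616 CPM in GRko/ko, all with vehicle. Against GRwt/wt of run 1, which the GRD+L/D+L and GRko/ko comparisons share, the median log2 fold change of the list was -3.06 in GRD+L/D+L and 3.67 in GRko/ko. The difference between GRL/L and GRwt/wt itself differed from that of GRD+L/D+L in 19 of the 20 members and from that of GRko/ko in all 20 (interaction terms at an adjusted p of 0.05). Of all 15489 genes tested, 3191 passed against GRD+L/D+L and 5449 against GRko/ko. By these medians and sums, the mutant that carries the L allele together with D stood on the opposite side of its control from GRL/L. GRko/ko and, by its summed level, GRD/D stood on the same side as GRL/L. GRwt/wt of run 2 itself stood above GRwt/wt of run 1 by a list median of 0.71. The 6 Y-linked genes tested summed to 26.7 to 31.9 CPM in GRwt/wt of run 1 and 19.7 to 27.7 CPM in GRD/D. They summed to 183 to 192 CPM in GRD+L/D+L and 146 to 159 CPM in GRko/ko. The Y-linked gene Ddx3y was at most 0.130 CPM in GRwt/wt of run 1 and at least 85.5 CPM in GRD+L/D+L. In GRL/L and GRwt/wt of run 2 those 6 genes summed to 254 to 293 and 271 to 298 CPM. The study's methods also describe another strain for the mice behind GRko/ko.

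The calls were then set beside those of the same 2 mutants over the whole table. In GRD+L/D+L against GRwt/wt of run 1, 863 genes were called (5.57%), and in GRko/ko 2200 (14.2%). No library is shared between these contrasts and that of GRL/L. Of the 155 genes called higher in GRL/L, 84 (54.2%) were called lower in GRD+L/D+L, where they made up 17.9% of 468 such genes, and 8 (5.16%) were called higher. In GRko/ko, 126 of the 155 (81.3%) were called higher, or 8.31% of 1516 such genes, and 2 were called lower. Of the 48 genes called lower in GRL/L, 3 were called lower and 7 higher in GRD+L/D+L, and 5 lower and 15 higher in GRko/ko. Over all 15489 genes tested, 468 were called lower and 395 higher in GRD+L/D+L, and 684 lower and 1516 higher in GRko/ko. Itgal, Pik3ap1, Lair1, Lrrc25, Bin2 and Lcp2, named above as leukocyte genes outside the list, were lower in GRD+L/D+L (log2 fold changes of -4.56 to -2.11). In GRko/ko they were higher (3.54 to 4.89), and Dock8 was higher in both mutants. The part of macrophage content in the genes outside the list was not tested.

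**Figure D3:**
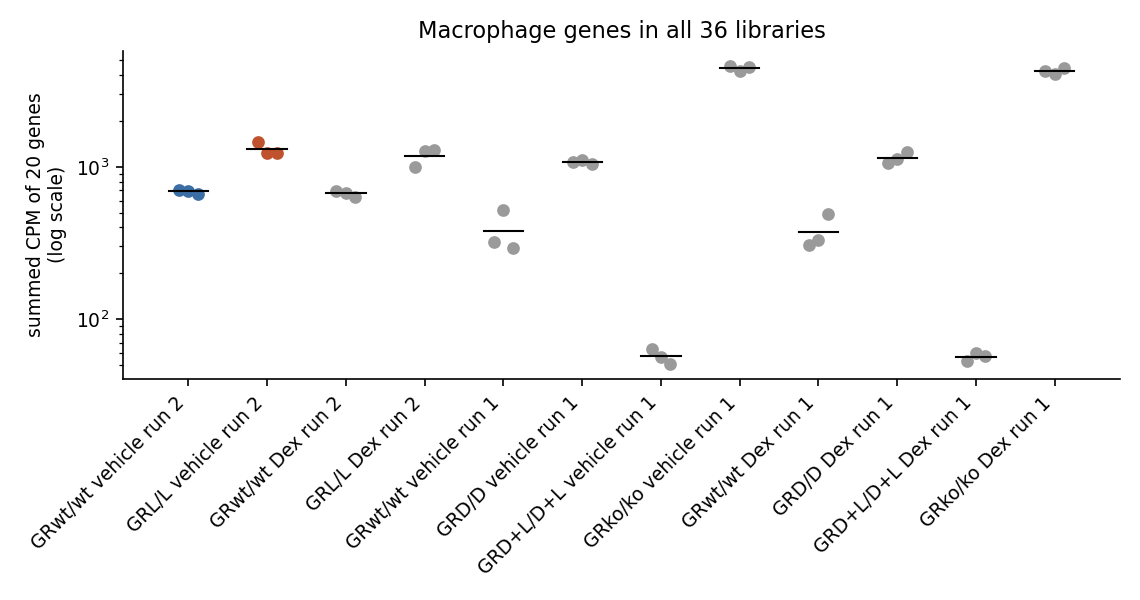
Summed CPM of the 20 macrophage genes (y axis, log scale) in all 36 libraries by genotype, treatment and run (x axis); points are libraries and lines are group means, with the vehicle libraries of GRwt/wt of run 2 in blue and of GRL/L in red. GRL/L vehicle libraries sit at 1225 to 1451 CPM and GRwt/wt of run 2 at 660 to 708 CPM, between GRD+L/D+L at the bottom and GRko/ko at the top.

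Promoters of macrophage genes are known for short purine-rich motifs that are read by factors of the ETS family, among them PU.1. The letters AGGAAGT were searched on both strands in the 250 bases before the RefSeq start (GRCm38.p6) of each gene with a window. They were found in 5 of 15 macrophage windows (33.3%), in 7.69% of all 32851 windows and in 8.5% of the windows of genes tested. The longer form GAGGAAGT, which contains these letters, was found in 1 of the 15 (6.67%) and in 2.44% of all windows. The windows of C1qb, at chr4:136886201-136886450 on the minus strand, and of Ptprc, at chr1:138175306-138175555 on the minus strand, are shown because both genes were higher in GRL/L and both hold the letters, C1qb 1 time and Ptprc 2 times. They are written 5′ to 3′ in the direction of the gene with the match, or its reverse complement, in capitals.
C1qb: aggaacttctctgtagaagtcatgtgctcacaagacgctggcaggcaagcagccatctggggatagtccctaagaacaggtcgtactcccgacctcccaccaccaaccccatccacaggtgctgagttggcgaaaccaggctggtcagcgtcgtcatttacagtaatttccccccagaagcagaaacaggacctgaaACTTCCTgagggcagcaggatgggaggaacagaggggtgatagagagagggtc
Ptprc: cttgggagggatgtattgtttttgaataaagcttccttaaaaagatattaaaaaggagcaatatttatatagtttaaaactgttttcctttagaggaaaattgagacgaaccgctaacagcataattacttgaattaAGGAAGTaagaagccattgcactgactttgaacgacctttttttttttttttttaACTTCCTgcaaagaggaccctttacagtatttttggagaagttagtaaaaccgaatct
A match describes the letters of the window and is no evidence of binding in these cells.

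Genes of sterol and fatty acid synthesis encode the enzymes that build cholesterol from acetyl-CoA, regulators of the pathway, and the enzymes that make and desaturate fatty acids. Of 32 members, 30 were lower in GRL/L at the adjusted p (against 4.47% of all genes tested), 0 were higher and 0 were called, because the changes were of less than 2-fold. The median log2 fold change was -0.45, and the members lay between -0.81 and -0.11. Their summed level was 3024 to 3061 CPM in the GRL/L libraries and 3983 to 4230 CPM in GRwt/wt, without overlap. The exceptions were Acaca, the first enzyme of fatty acid synthesis (-0.22 ± 0.07, adjusted p = 0.0532), and Srebf1, a transcription factor of the pathway (-0.11 ± 0.06, adjusted p = 0.29). With any 1 library left out, 28 to 30 members were lower.

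Scd1, which puts the double bond into saturated fatty acids, had the largest difference of the list. It was at 141, 154 and 146 CPM in GRL/L and at 261, 259 and 254 CPM in GRwt/wt, with a log2 fold change of -0.81 ± 0.05 or 1.76-fold lower (adjusted p = 3.59e-15). The gene lies on the minus strand at chr19:44394455-44407879. Hmgcs1, which makes the precursor of mevalonate, was at 231, 232 and 247 CPM against 330, 339 and 328 CPM (-0.49 ± 0.05, adjusted p = 5.48e-09). In both genes the spread within a genotype was small beside the gap between genotypes.

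Further along the pathway, the squalene epoxidase Sqle was at 96.7, 93.5 and 92.3 CPM in GRL/L and at 126, 126 and 137 CPM in GRwt/wt (-0.46 ± 0.05). Lss, which closes squalene into lanosterol, was at 46.2, 48.4 and 49.3 CPM against 69.7, 71.1 and 78.1 CPM (-0.61 ± 0.06, adjusted p = 3.96e-09). Insig1, which holds the sterol sensor in the endoplasmic reticulum, was at 42.3, 45.2 and 44.9 CPM against 66.7, 67.1 and 70.4 CPM (-0.62 ± 0.06, adjusted p = 3.96e-09). The fatty acid synthase Fasn was lower to a like degree (-0.40 ± 0.09), and Srebf2, the transcription factor of the sterol branch, by less (-0.22 ± 0.06, adjusted p = 0.00874).

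In the other mutants the list had smaller medians. The median log2 fold change was -0.05 in GRD+L/D+L and -0.20 in GRko/ko, both against the same GRwt/wt libraries of run 1. The difference of GRL/L differed from that of GRD+L/D+L in 23 of 32 members and from that of GRko/ko in 18 (interaction terms at an adjusted p of 0.05). The same terms passed in 3191 and 5449 of all 15489 genes tested. Scd1 had a log2 fold change of 0.08 in GRD+L/D+L (adjusted p = 0.238) and of -0.20 in GRko/ko (adjusted p = 0.000594).

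**Figure D4:**
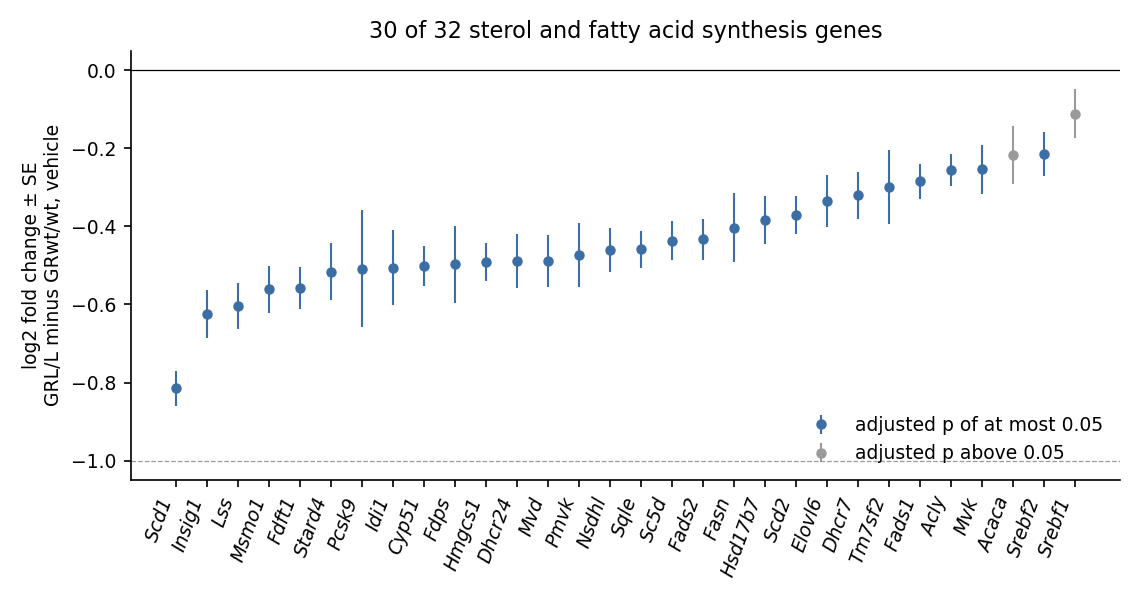
Log2 fold change of GRL/L minus GRwt/wt with vehicle (y axis, bars are ± SE) for 30 of the 32 genes of sterol and fatty acid synthesis (x axis), ordered by value. All 30 lie below 0 and above -1, from Scd1 at -0.81 to Srebf1 at -0.11, with blue points at an adjusted p of at most 0.05 and the grey points of Acaca and Srebf1 above it.

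Promoters of this pathway are read by sterol regulatory element binding proteins together with NF-Y, a factor of the CCAAT box. The letters CCAAT stood in 17 of 21 windows of the list (81.0%), in 33.8% of all windows and in 40.2% of the windows of genes tested, and also in 22 of 31 windows of the cell cycle list. The sterol element TCACNCCAC was found in 1 of the 21 windows (4.76%), that of Hmgcs1, and in 1.05% of all windows. The windows of Hmgcs1, at chr13:119690101-119690350 on the plus strand, and of Insig1, at chr5:28071162-28071411 on the plus strand, are shown because both genes were lower in GRL/L. Capitals mark the letters CCAAT on either strand (3 matches in Hmgcs1, 1 in Insig1) and TCACNCCAC (1 match in Hmgcs1).
Hmgcs1: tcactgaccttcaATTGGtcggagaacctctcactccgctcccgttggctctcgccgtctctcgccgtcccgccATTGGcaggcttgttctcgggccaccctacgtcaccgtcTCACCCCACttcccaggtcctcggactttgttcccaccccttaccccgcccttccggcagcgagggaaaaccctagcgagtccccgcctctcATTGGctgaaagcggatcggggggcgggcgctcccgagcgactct
Insig1: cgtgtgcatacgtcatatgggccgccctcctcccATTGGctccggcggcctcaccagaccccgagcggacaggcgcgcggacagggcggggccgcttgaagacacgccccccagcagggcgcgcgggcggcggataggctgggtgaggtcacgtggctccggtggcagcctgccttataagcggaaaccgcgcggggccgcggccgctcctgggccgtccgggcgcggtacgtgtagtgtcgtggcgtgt
In all, 8 motifs were searched. Cartilage and adipogenic genes held CCAAT in 46.2% and 45.5% of their windows.

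Among adipogenic genes, which mark preadipocytes and fat cells, 5 of 14 were lower in GRL/L at the adjusted p, 3 of them called, and 2 were higher. The median log2 fold change was -0.11. Against GRwt/wt of run 1 it was 0.37 in GRD+L/D+L and 0.23 in GRko/ko. The list summed to 618 to 691 CPM in GRL/L and 711 to 756 CPM in GRwt/wt of run 2. In GRwt/wt of run 1 it summed to 72.3 to 82.3 CPM. Adipoq, which encodes the hormone adiponectin, was at 2.57, 2.21 and 1.95 CPM in GRL/L and at 9.21, 8.46 and 8.77 CPM in GRwt/wt, a log2 fold change of -1.97 ± 0.15 or 3.92-fold lower (adjusted p = 3.68e-10). The lipid droplet proteins Cidec and Plin1 were lower by 2.11 ± 0.30 and 1.36 ± 0.31 on the log2 scale. Fabp4, a fatty acid carrier, was at 11.9, 11.0 and 11.3 CPM against 19.7, 19.1 and 18.2 CPM (-0.74 ± 0.09), and Pparg, the master regulator of the lineage, at 15.2, 16.2 and 15.4 CPM against 20.2, 19.3 and 19.3 CPM (-0.33 ± 0.07, adjusted p = 0.00213). The more abundant Lpl did not pass (-0.21 ± 0.08, adjusted p = 0.0838), and Cd36 (0.52 ± 0.12) and Ppargc1a (0.67 ± 0.21) were higher.

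The lower genes with the smallest adjusted p outside the lists included 3 that fat cells express strongly. Car3, a carbonic anhydrase, was at 8.96, 8.29 and 9.60 CPM in GRL/L and at 32.5, 33.1 and 29 CPM in GRwt/wt (-1.82 ± 0.11, adjusted p = 9.03e-14). Haptoglobin, Hp, was at 2.53, 2.56 and 3.23 CPM against 11.6, 12.6 and 14.7 CPM (-2.22 ± 0.14, adjusted p = 1.28e-13). The complement factor Cfd, also called adipsin, was at 1.99, 2.40 and 1.48 CPM against 8.11, 8.53 and 6.50 CPM (-1.97 ± 0.19, adjusted p = 4.57e-07). All 3 were 3.52- to 4.66-fold lower with no overlap of the groups. The placental hormone gene Prl2c2 was lower by a smaller step, at 2.43, 2.34 and 2.97 CPM against 5.54, 5.65 and 5.01 CPM (-1.06 ± 0.16, adjusted p = 1.42e-05); it belongs to a family of near-identical copies, so its counts are uncertain, and it fell just short of the limit without GRL/L replicate 2 (-0.995).

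Skeletal muscle genes were present at trace levels, their 19 tested members summing to 31.4 to 34.6 CPM in GRL/L and 47.4 to 51.1 CPM in GRwt/wt. Of these, 9 were lower at the adjusted p and 0 higher, 5 were called, and the median log2 fold change was -0.65. In GRwt/wt of run 1 the same members summed to 690 to 796 CPM. Against that group their median was -0.0024 in GRD+L/D+L and 1.66 in GRko/ko. The embryonic myosin heavy chain Myh3 was at 0.507, 0.411 and 0.297 CPM in GRL/L and at 2.36, 1.57 and 1.52 CPM in GRwt/wt (-2.15 ± 0.33, adjusted p = 1.34e-05). The perinatal heavy chain Myh8 (-1.75 ± 0.44), the light chain Myl1 (-1.80 ± 0.43) and the acetylcholine receptor subunit Chrna1 (-1.36 ± 0.35) were also called. Myh8 was not called without GRL/L replicate 1 (-1.28), nor Chrna1 without GRwt/wt replicate 4 (-1.02). Without GRwt/wt replicate 4 the count of lower members was 5. The list of contractile and smooth muscle genes had 7 lower and 1 higher of 23, among them Acta2 with -0.26 ± 0.05, and Ankrd1, an ankyrin repeat protein of muscle, with -0.64 ± 0.12.

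Of the other cell types, epithelial genes had 3 of 8 tested members lower, 2 of them called, and this rested in part on the library with keratinocyte transcripts. The basal keratin Krt14 was at 0.473, 0.348 and 0.594 CPM in GRL/L and at 0.917, 0.912 and 25 CPM in GRwt/wt, so that the log2 fold change of -4.23 ± 0.77 came mainly from replicate 6. Without that replicate it was -0.95 (adjusted p = 0.305), and the hemidesmosome collagen Col17a1 moved from -1.11 to -0.64 (adjusted p = 0.159). Krt8, a keratin of simple epithelia, was at 0.101, 0.285 and 0.132 CPM against 0.670, 1.17 and 0.594 CPM (-2.17 ± 0.57, adjusted p = 0.00905), and was not called without GRL/L replicate 1 (-1.92) or GRwt/wt replicate 5 (-1.82). Endothelial genes had 3 of 9 lower and 1 higher, and the calls of Emcn (-1.32 ± 0.35) and Sox18 (-1.23 ± 0.38) were lost without replicate 6 (adjusted p = 0.123 and 0.197). Each of these calls was lost in 4 of the alternative settings, that one included. Glial and neuronal genes had 1 higher and 1 lower of 14, and of 10 erythroid genes 0 were tested, with at most 8 counts in any of the 6 libraries.

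**Figure D5:**
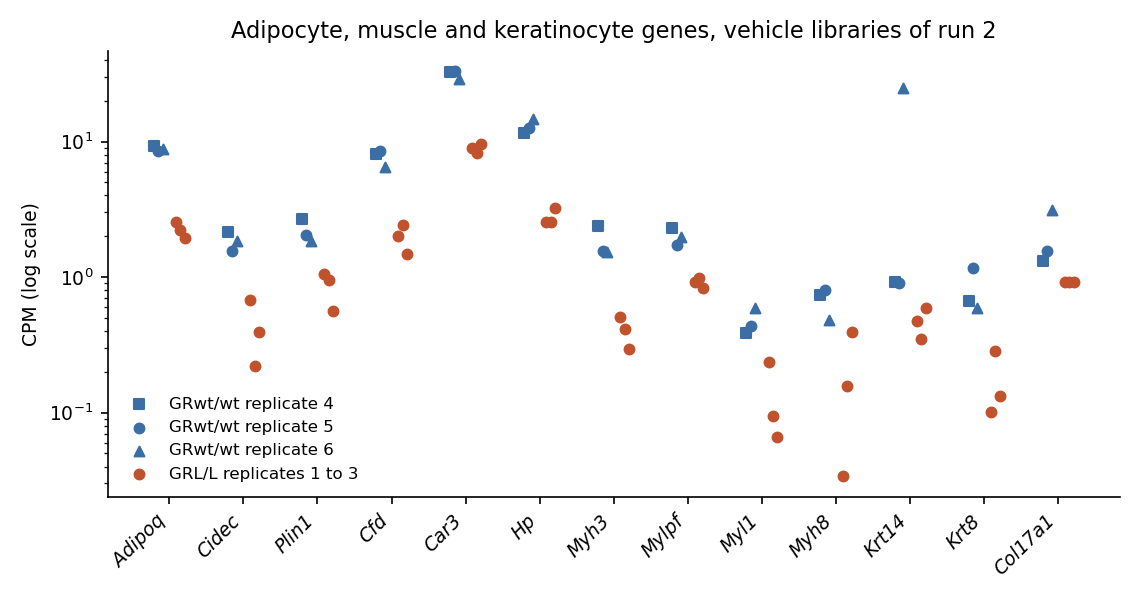
Level of adipocyte, muscle and keratinocyte genes (x axis) in the vehicle libraries of run 2, in CPM on a log scale (y axis); blue symbols are GRwt/wt replicates 4 (square), 5 (circle) and 6 (triangle), and red circles are GRL/L. Adipoq, Car3 and Hp separate the genotypes in every library, whereas Krt14 stands out in GRwt/wt replicate 6 alone, at 25 CPM.

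Of 17 cartilage genes, 8 were higher at the adjusted p and 0 lower, with a median log2 fold change of 0.48, and Comp, Col2a1 and Matn4 were called. Comp, a pentameric protein of cartilage and tendon matrix, was at 31.7, 31.7 and 30.4 CPM in GRL/L and at 12.3, 12.1 and 11.6 CPM in GRwt/wt (1.38 ± 0.26, adjusted p = 0.000255). Its adjusted p was 0.105 with DESeq2, although its groups lay far apart in these 6 libraries. The main cartilage collagen Col2a1 was at 19, 19.8 and 23.2 CPM against 8.64, 8.68 and 12.8 CPM (1.04 ± 0.32, adjusted p = 0.0277), and was no longer called without GRL/L replicate 2 (1.08) or 3 (0.95) or GRwt/wt replicate 4 (0.95) or 5 (0.95). Acan, the large aggregating proteoglycan, was at 9.87, 10.4 and 9.70 CPM against 4.83, 4.92 and 5.87 CPM (0.94 ± 0.18), and the cartilage factors Sox5 (0.64 ± 0.13) and Sox6 (0.63 ± 0.13) were higher with it. Matn4 (1.01 ± 0.25, adjusted p = 0.00451) was not called with DESeq2, where its adjusted p was 0.136, nor without GRL/L replicate 1 (0.93) or GRwt/wt replicate 6 (0.93).

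Of 49 extracellular matrix glycoproteins, 19 were higher and 2 lower, with a median log2 fold change of 0.11. The largest step was that of Fbln7, a fibulin, at 6.62, 5.63 and 5.41 CPM in GRL/L and 2.50, 2.01 and 1.82 CPM in GRwt/wt (1.47 ± 0.19, adjusted p = 7.96e-07). Thbs4, a thrombospondin of tendon, was at 109, 104 and 101 CPM against 55.4, 52.4 and 66.1 CPM (0.85 ± 0.12). Elastin, Eln (0.74 ± 0.13), and osteoglycin, Ogn (0.70 ± 0.13), were higher, as was Cilp of the cartilage intermediate layer (1.09 ± 0.23, adjusted p = 0.000928), which was not called without GRwt/wt replicate 6 (0.93). The hyaluronan synthase Has2 was lower, at 58.7, 58.7 and 58.8 CPM against 80.6, 85.5 and 98.2 CPM (-0.58 ± 0.07, adjusted p = 6.16e-08), and so was Fbln2 (-0.22 ± 0.06). Prg4, which encodes the lubricant of joint surfaces, was at 10.4, 11.8 and 9.90 CPM in GRL/L and at 4.73, 3.57 and 4.68 CPM in GRwt/wt (1.31 ± 0.18, adjusted p = 1.71e-06). In GRwt/wt of run 1 it was at 12.5 to 16.7 CPM, above GRL/L, and with GRwt/wt of both runs as control it was not called (0.71, adjusted p = 0.0558).

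The fibrillar collagens that make up the bulk of the matrix did not pass the test, with Col1a1 at 0.25 ± 0.12 (adjusted p = 0.198) and Col3a1 at 0.29 ± 0.12 (adjusted p = 0.132). Of 42 collagens, 6 were higher and 2 lower, and Col26a1 was called at 7.47, 6.52 and 5.31 CPM against 2.89, 2.52 and 2.12 CPM (1.35 ± 0.22, adjusted p = 3.65e-05). Matrix proteases and inhibitors had 5 higher and 4 lower of 39, among them Timp2 (0.44 ± 0.04) and Mmp10 (-0.81 ± 0.17). Bone genes had 1 of 9 higher, Phex.

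Among 66 positional and mesenchymal transcription factors, 17 were higher and 0 lower at the adjusted p, with a median of 0.19, but 10 were higher without GRwt/wt replicate 4 and 11 without GRL/L replicate 1 or 2 or GRwt/wt replicate 5. Scx, the factor of tendon progenitors, was at 10.7, 11.5 and 10.0 CPM in GRL/L and at 5.18, 5.73 and 5.39 CPM in GRwt/wt (0.98 ± 0.10, adjusted p = 1.88e-08). Nkx3-2, a factor of cartilage, was called at 1.08 ± 0.31, and the call was lost without GRL/L replicate 1 (1.00) or 2 (0.92) or GRwt/wt replicate 4 (0.92) or 5 (0.99). Foxc1 (0.63 ± 0.08), Foxc2 (0.65 ± 0.12) and Ebf3 (0.59 ± 0.08) were higher without being called. Of 37 Hox genes, 2 were higher and 0 lower, a smaller share than the 6.88% of all genes tested that were higher. They were Hoxd13, at 20.7, 21.9 and 22.2 CPM against 14.0, 12.2 and 12.1 CPM (0.75 ± 0.08, adjusted p = 7.96e-09), and Hoxa13 (0.51 ± 0.13).

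Imprinted genes, of which the cell expresses 1 parental copy, had 8 of 27 members higher and 1 lower, with a median of 0.18. Dlk1, a membrane protein of progenitor cells, was at 786, 757 and 680 CPM in GRL/L and at 460, 430 and 396 CPM in GRwt/wt (0.79 ± 0.09, adjusted p = 2.47e-08). Mest was at 354, 367 and 359 CPM against 223, 208 and 176 CPM (0.83 ± 0.08, adjusted p = 7.53e-09). The cell cycle inhibitor Cdkn1c was at 153, 144 and 136 CPM against 85.6, 84.1 and 68.9 CPM (0.86 ± 0.10, adjusted p = 9.09e-08), and the growth factor Igf2 at 54.5, 45.7 and 44.5 CPM against 27.4, 26.6 and 30.5 CPM (0.78 ± 0.11). These 4 genes were higher in every GRL/L library than in any GRwt/wt library. Among 16 insulin-like growth factor genes, 4 were higher, including the binding proteins Igfbp2 (0.76 ± 0.08) and Igfbp5 (0.67 ± 0.10), and 1 was lower, Igfbp7 (-0.41 ± 0.05).

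Of 30 Wnt ligands and antagonists, 9 were higher and 0 lower, among them the enhancer of Wnt signalling Rspo2 (0.51 ± 0.06) and the antagonist Sfrp4. Sfrp4 was called at 1.05 ± 0.26 and not without GRL/L replicate 1 (0.95) or GRwt/wt replicate 5 (0.78) or 6 (0.97). The transcripts that Wnt signalling itself raises, Axin2 (0.46 ± 0.13) and Nkd1 (0.74 ± 0.11), were among the 9. Of 33 BMP and TGF-beta genes, 7 were higher and 4 lower. Tgfb2, a TGF-beta ligand, was at 55.1, 54.2 and 53.6 CPM in GRL/L and at 31.9, 32.7 and 30.5 CPM in GRwt/wt (0.78 ± 0.06, adjusted p = 5.93e-12), and the joint factor Gdf5 was called at a low level (1.51 ± 0.41, adjusted p = 0.0124), which was lost without GRL/L replicate 2 (1.44) or GRwt/wt replicate 4 (1.32). Nptx1, a pentraxin of neurons, had the smallest adjusted p of all higher calls. It was at 39.4, 39.1 and 38.6 CPM in GRL/L and at 19.2, 15.9 and 13.5 CPM in GRwt/wt (1.27 ± 0.10, adjusted p = 3.3e-11). The neuronal nitric oxide synthase Nos1 was at 3.41, 3.48 and 2.64 CPM against 1.73, 1.17 and 0.928 CPM (1.31 ± 0.22).

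Of 38 cell cycle genes, 19 were lower at the adjusted p and 0 higher, 0 were called, and the median log2 fold change was -0.19. The mitotic checkpoint kinase Bub1b was at 42.5, 42.0 and 43.2 CPM in GRL/L and at 50.7, 54.1 and 54.7 CPM in GRwt/wt (-0.32 ± 0.05), and the topoisomerase Top2a at 162, 150 and 162 CPM against 185, 192 and 189 CPM (-0.25 ± 0.04, adjusted p = 5.47e-05). Without GRwt/wt replicate 6, 12 members were lower. The lists of p53 target genes (5 lower and 1 higher of 20), of the integrated stress response (6 lower and 1 higher of 21), of immediate early genes (5 higher and 1 lower of 21) and of interferon-stimulated genes (2 higher and 0 lower of 40) held no called gene.

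Genes that glucocorticoids are known to induce showed no common shift without Dex. Of 27 textbook members, 5 were higher and 1 lower at the adjusted p, with a median of 0.05. Tsc22d3, an anti-inflammatory leucine zipper protein, was at 36.6, 34.9 and 34.0 CPM in GRL/L and at 35.8, 32.6 and 33.7 CPM in GRwt/wt (0.05 ± 0.07, adjusted p = 0.753). Fkbp5, a chaperone that damps GR, was at 47.7, 45.5 and 45.5 CPM against 50.5, 49.4 and 54.2 CPM (-0.15 ± 0.07, adjusted p = 0.171). The phosphatase Dusp1 was at 13.3, 13.2 and 11.9 CPM against 10.8, 10.7 and 11.2 CPM, which is a small increase of 0.24 ± 0.07 (adjusted p = 0.0295). The groups overlapped for Tsc22d3 and not for Fkbp5 or Dusp1.

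The genes that Dex moved in wild-type cells were taken from run 1, whose libraries the comparison does not use, where 311 genes were called (2.01%). Over all genes tested, 6.88% were higher and 4.47% lower at the adjusted p, 1.00% were called higher and 0.310% called lower. Of the 198 raised by Dex, 14 were higher and 8 lower in GRL/L at baseline, which is near those shares. Their median was 0.03 (0.02 without GRwt/wt replicate 5), and 3 were called, 1 higher and 2 lower. Of the 113 lowered by Dex, 22 were higher and 10 lower, with a median of 0.14, and the higher members were above the share of all genes tested. In this list 6 were called, all higher: Pik3ap1, Nptx1, Itgax, Pik3r6, Hhex and Shisa9. Among these, Pik3ap1, Itgax and Pik3r6 are genes of leukocytes.

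Inflammatory mediators, the classical targets of repression by GR, moved in both directions, with 5 of 29 higher, 7 lower and a median of -0.08. Il6 was at 3.11, 2.85 and 3.13 CPM in GRL/L and at 4.34, 4.49 and 5.05 CPM in GRwt/wt (-0.61 ± 0.14, adjusted p = 0.00231). The monocyte chemokines Ccl2 (-0.36 ± 0.10) and Ccl7 (-0.40 ± 0.10) and the macrophage growth factor Csf1 (-0.24 ± 0.06, adjusted p = 0.00748) were lower. Ch25h, which makes an oxysterol (0.72 ± 0.10), Cxcl15 (0.80 ± 0.18), Icam1 (0.39 ± 0.06) and Cxcl12 (0.36 ± 0.06) were higher, beside Tnf.

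The Dex libraries of the same run hold the same genotypes and, per the study, the same cultures, so they are not independent of the vehicle libraries, and the fit had no term for the culture. In them, 197 genes were called between GRL/L and GRwt/wt (1.27%). Of the 155 genes called higher with vehicle, 147 were higher with Dex, 91 at the adjusted p and 42 called, and their median log2 fold change was 0.84 with Dex and 1.18 with vehicle. Of the 48 called lower, 42 were lower with Dex, 23 at the adjusted p and 15 called, with medians of -0.93 and -1.49. These genes were chosen on the vehicle libraries, which by itself favours larger values there. The difference between genotypes depended on treatment (interaction term) in 286 of all genes tested and in 3 of the 203 called, Prg4, Adamtsl2 and Rapgef5, the last with a log2 fold change of -0.39 in the Dex libraries.

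By group, the macrophage list had a median of 0.82 and a summed level of 1003 to 1285 CPM in GRL/L and 634 to 698 CPM in GRwt/wt with Dex. The interaction term passed the adjusted p in 0 of its 20 members, which does not show that the differences were equal. Sterol and fatty acid synthesis genes had a median of -0.32 with Dex, again with 0 of 32 members passing the interaction term, and Scd1 kept a log2 fold change of -0.65. Adipoq (-1.96), Car3 (-1.83) and Hp (-2.06) were lower with Dex by about the step seen with vehicle. The matching values in the Dex libraries of Comp and Scx were 1.44 and 1.10.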

How the data were processed

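RNA of vehicle-treated GRL/L and GRwt/wt MEFs was analysed from the table of raw gene counts that the authors deposited. Per the paper and the submitters' processing notes, TruSeq libraries were sequenced on a NextSeq, and uniquely mapped reads were aligned to mm10 with HISAT2 2.1.0 and counted with featureCounts 2.0.0. The annotation release and strand setting are not given in the sources used here, so overlapping genes and near-identical copies are uncertain. All columns were used. Symbols and positions came from GENCODE for 55227 of 55487 identifiers.

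Counts of all 36 libraries were fitted in edgeR 4.0.16 (R 4.3.3) with TMM scaling, filterByExpr and 1 term for each of the 12 groups, and contrasts were tested by the quasi-likelihood F test with Benjamini-Hochberg adjustment over all genes tested. Pooling gave a biological coefficient of variation of 0.0513. Genes were called at an adjusted p of 0.05 and a log2 fold change of 1 in size, the thresholds of the study. SE was taken from the F statistic (size of the log2 fold change over the root of F) and is approximate. CPM are scaled to TMM library sizes. No 2 replicates agreed within sampling noise. Differences of differences were tested as interaction terms in the same fit.

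The comparison and all 30 gene lists were chosen with earlier results of these data known, and lists are described by counts and medians. Named genes were autosomal calls averaging 50 or more counts, with non-overlapping groups and an ordinary symbol: the 15 largest changes and the 5 smallest adjusted p-values in each direction. Called members of lists (at most 4 per direction) were added, and Nr3c1, Tsc22d3, Fkbp5 and Dusp1. Alternatives were DESeq2 1.42.0, its size factors, other filters, other sets of libraries, glmTreat of edgeR, no fold limit and each library left out; the repeats of list counts and a replicate block for the vehicle and Dex libraries were added after the data were seen. Scripts were tested on simulated data. Some members of the lists are counted and not reported here by name. Promoter windows are from RefSeq, with 11201 of the genes tested matched by symbol. Figures were drawn with matplotlib 3.10.9.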

Additional observations from a re-analysis of the deposited data

Results flagged for a closer look

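Differences between GRL/L and GRwt/wt that depended on treatment were found for 9 of the genes named, by an interaction term at an adjusted p of 0.05 in edgeR. Given as the vehicle log2 fold change minus that in Dex, the values were 1.86 for Rapgef5, 1.39 for Prg4, 1.01 for Cdkn1c, 0.54 for Dlk1 and 0.33 for Tgfb2, all more in favour of GRL/L with vehicle. Among GR target genes the values were 0.59 for Dusp1, 0.63 for Tsc22d3 and 0.40 for Fkbp5. The value for Has2 was -0.91: it was lower in GRL/L with vehicle (-0.58) and higher with Dex (0.33).

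Differences from GRwt/wt that were unlike in GRL/L and GRD+L/D+L by the same kind of test were found for 19 of 20 macrophage genes and for 23 of 32 genes of sterol and fatty acid synthesis. Of all 15489 genes tested, 3191 passed that test. The 2 mutants were compared with different GRwt/wt libraries of different runs, and the 6 Y-linked genes tested summed to 26.7 to 31.9 CPM in GRwt/wt of run 1 and 183 to 192 CPM in GRD+L/D+L. Groups of 3 libraries were not tested for outlying samples.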

How the results depend on the processing

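No paired analysis was possible for GRL/L against GRwt/wt of run 2 because they share no replicate numbers. Vehicle and Dex libraries of a genotype share them, but the deviations of same-numbered libraries from their group means correlated above 0.1 in 1 of 18 pairs, and in 7 of 18 the vehicle library correlated best with its own number, so the numbers were not taken to pair the cultures. With a replicate block, added after the data were seen, 291 genes were called for Dex in GRwt/wt of run 1 (288 of them also without it), the baseline median of the lowered list was 0.088, and the genotype difference depended on treatment in 248 genes and in 3 of the calls. Counts of genes called are given in the order GRL/L with vehicle, GRL/L with Dex, GRD+L/D+L, GRko/ko, GRwt/wt of run 2 against run 1, and Dex in GRwt/wt of run 1. They were 203, 197, 863, 2200, 3535 and 311 as reported, 1757, 2773, 4627, 7071, 11208 and 2159 with no limit on the fold change, and 18, 19, 291, 816, 1790 and 144 with at least 10 counts in each library (11959 genes tested). That filter left 17 genes higher and 1 lower in GRL/L with vehicle, and list counts of 11 of 11 macrophage, 5 of 8 cartilage, 4 of 6 skeletal muscle and 2 of 9 adipogenic genes, fewer because fewer genes were tested. With no filter (32584 genes) 154 were higher and 107 lower, and glmTreat called 4, of which 0 were higher. With only the 6 libraries of the contrast, 13 imprinted genes were higher; the cause was not tested. The medians of the lists raised and lowered by Dex, taken without a fold limit, were 0.0076 and 0.0077.

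With each library left out, the counts ranged from 150 to 231, 159 to 241, 808 to 849, 2153 to 2212, 3476 to 3621 and 276 to 313, and those of GRL/L with vehicle from 102 to 166 higher and 35 to 65 lower, the lowest total and 102 without GRL/L replicate 1. List counts ranged from 18 to 19 for macrophage, 28 to 30 for sterol and fatty acid synthesis, 7 to 8 for cartilage, 16 to 19 for matrix glycoprotein, 7 to 8 for imprinted, 12 to 17 for cell cycle (12 without GRwt/wt replicate 6), 10 to 16 for positional factor and 5 to 9 for skeletal muscle genes (10 and 5 without replicate 4). The count of lower adipogenic genes was 5 each time. The medians of the Dex lists ranged from 0.0167 to 0.0505 and from 0.114 to 0.176. With DESeq2, 134 genes were called higher and 38 lower. None of the results that were recomputed reversed, and some genes mentioned outside the naming rule were not recomputed. Weakly expressed calls are limited by depth. Per the paper, the replicates of a genotype are 3 cultures from different mice. The 3 vehicle libraries of each group lay on the same side in the summed Y-linked genes. They were at 19.7 to 27.7 CPM in GRD/D, 26.7 to 31.9 CPM in GRwt/wt of run 1 and at least 145.7 CPM in every other group. Whether the replicates of a group are separate embryos or share a culture was not tested, so SE and adjusted p may not hold the spread between mice.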

Other observations

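The keratinocyte transcripts of GRwt/wt vehicle replicate 6 were largely lacking in the Dex library with the same replicate number. Krt5 had 554 counts in the vehicle library and 8 in the Dex library, Krt14 had 674 and 27, and Krt6a had 342 and 14. Among the Dex libraries of GRwt/wt, replicate 4 had the most, with 68 counts of Krt5 and 101 of Krt14. S100a9, which is among the 13 genes counted above for the vehicle library of replicate 6, had 67 counts in it. It had 0 in each of the other 5 vehicle libraries of run 2.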
